A study of Mus musculus with 36 samples.

Results

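The genes described here are 10 genes that license and start DNA replication origins: Mcm2, Mcm3, Mcm4, Mcm5, Mcm6 and Mcm7, the subunits of the MCM2-7 replicative helicase, Cdc6 and Cdt1, which load it on DNA, and Mcm10 and Gins1, which take part in turning the loaded helicase into an active one. They were chosen by name, with their levels in these cultures already known, out of 52230 genes measured, and all 10 were among the 12177 genes that passed the filter on low counts. The selection used the levels across the conditions, so values, changes and counts of these 10 genes are given below as a description with no test. Counts of them past a threshold are part of that description and carry no verdict. Tests are given for 52 other genes of the same pathway.

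In a cell that is about to divide, the origin recognition complex, Cdc6 and Cdt1 load MCM2-7 rings on origins before S phase. Kinases, Cdc45, Mcm10 and the GINS complex then convert the rings into moving helicases. Most genes of this step are targets of E2F transcription factors and are transcribed at the passage from G1 to S phase. Hepatocytes of the adult liver are mostly quiescent and express them at a low level.

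Hepatocytes were isolated from 3 adult female mice of the strain GCKR-P446L-EMI-B6N, whose genotype was labelled Gckr-446L for mice 1 and 2 and Gckr-446P/L for mouse 3, whereas the methods of the study describe the mice as homozygous, and were described as deficient in GKRP, the glucokinase regulatory protein that binds and inhibits the glucose-phosphorylating enzyme glucokinase (GK). Cultures were left untreated or received adenoviral vectors for human GKRP-446P (hP), human GKRP-446L (hL), mouse GKRP-446P (mP) or mouse GKRP-446L (mL), for GK alone, or for GK with each GKRP form (GK+hP, GK+hL, GK+mP, GK+mL). The GK vector was used at a titre set to raise GK 2 to 4 fold. The medium of the overnight culture held dexamethasone and insulin, each at 10 nM. Cultures were kept for 24 h at 5 mM glucose and then for 4 h at 25 mM glucose. The 36 cultures gave 30 samples, 1 for each of 3 mice in 10 conditions, since the 2 cultures of each mouse in the untreated and GK conditions were summed. No culture received a vector that encodes neither protein, so expression of GKRP and receipt of its vector cannot be told apart. In these bulk samples, more cells that express a gene and more RNA of it per cell cannot be told apart.

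The libraries held 3924674 to 10046158 reads assigned to transcripts, with a median of 5980276. Gckr, which encodes GKRP, was 57.1 ± 16.2 CPM (reads scaled to the effective library size; mean ± SD, n = 3) in untreated cultures, 17627 ± 4857 with mP and 14279 ± 3006 with mL, while the human vectors left it at 74.2 ± 39.8 with hP, so the human transcript was not counted as Gckr. One of the 2 GK cultures of mouse 3 stood apart with 1462 CPM of Gckr against 51.8 to 98.0 in the 5 other GK cultures. Some values that rest on this culture are given with and without it, and the others only with it. The 8 hepatocyte markers summed to 80702 to 144630 CPM in all groups. The 8 macrophage markers summed to 263 to 349 CPM in untreated cultures, 277 to 346 with GK, 241 to 317 with the GKRP vectors and 257 to 346 with both. The 4 lymphocyte markers summed to at most 4.92 CPM in any sample, and 3 of the 4 were under 1 CPM throughout.

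The promoters of these genes are shown first. The selection did not use their letters, but the genes were chosen by name from a class described above as mostly E2F targets. Their share with E2F letters is thus not independent of the choice. In windows from 250 bases before to 50 bases after the annotated start of each canonical transcript (GRCm39), 1 of the 4 strings TTTCCCGC, TTTGGCGC, TTTCGCGC and TTTGCCGC was found on either strand in 7 of the 10 genes and in 13 of the 52 other pathway genes. The same strings were in 2.83% of 21593 promoters of protein-coding genes. The CCAAT box, CCAAT on either strand, was in 8 of the 10 windows against 39.9% of all promoters, and the CHR letters TTTGAA were in 1 of the 10, that of Mcm2, against 17.1%. A match describes letters and not a bound site. The following 28-base stretches hold the E2F letters in capitals and are written 5′ to 3′ on the strand of the gene. In Mcm5, Mcm6 and Gins1, a match on each strand overlaps to form 1 run of 12 capitals.
Mcm3, chr1:20890500-20890527, minus strand: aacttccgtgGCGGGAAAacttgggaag
Mcm3, chr1:20890487-20890514, minus strand: ggaaaacttgggaagtTTTGGCGCcaag
Mcm4, chr16:15455471-15455498, minus strand: cggccccgggTTTCCCGCcaaaacgcaa
Mcm4, chr16:15455325-15455352, minus strand: gctacacgccTTTGCCGCtgtgattggc
Mcm5, chr8:75835976-75836003, plus strand: ccaagaacTTTCGCGCCAAAacgtccag
Mcm6, chr1:128287533-128287560, minus strand: cgtatgctTTTGGCGCGAAAagtgcgtg
Mcm6, chr1:128287472-128287499, minus strand: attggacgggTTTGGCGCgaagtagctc
Cdc6, chr11:98798649-98798676, plus strand: aggctgaagtagagcggcTTTGGCGCga
Cdt1, chr8:123294770-123294797, plus strand: ccgcgggaactaccttTTTGGCGCcatg
Gins1, chr2:150751497-150751524, plus strand: tgagcctaTTTGGCGCCAAAgcgaggag

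The matches of Mcm4, Mcm5 and Mcm6 lay upstream of the start, between bases -224 and -30, and those of Mcm3, Cdc6, Cdt1 and Gins1 lay in the transcribed bases 20 to 48. The windows of Mcm2, Mcm7 and Mcm10 held none of these 4 strings. Among the 6 helicase genes the letters were thus present in 4.

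**Figure D1:**
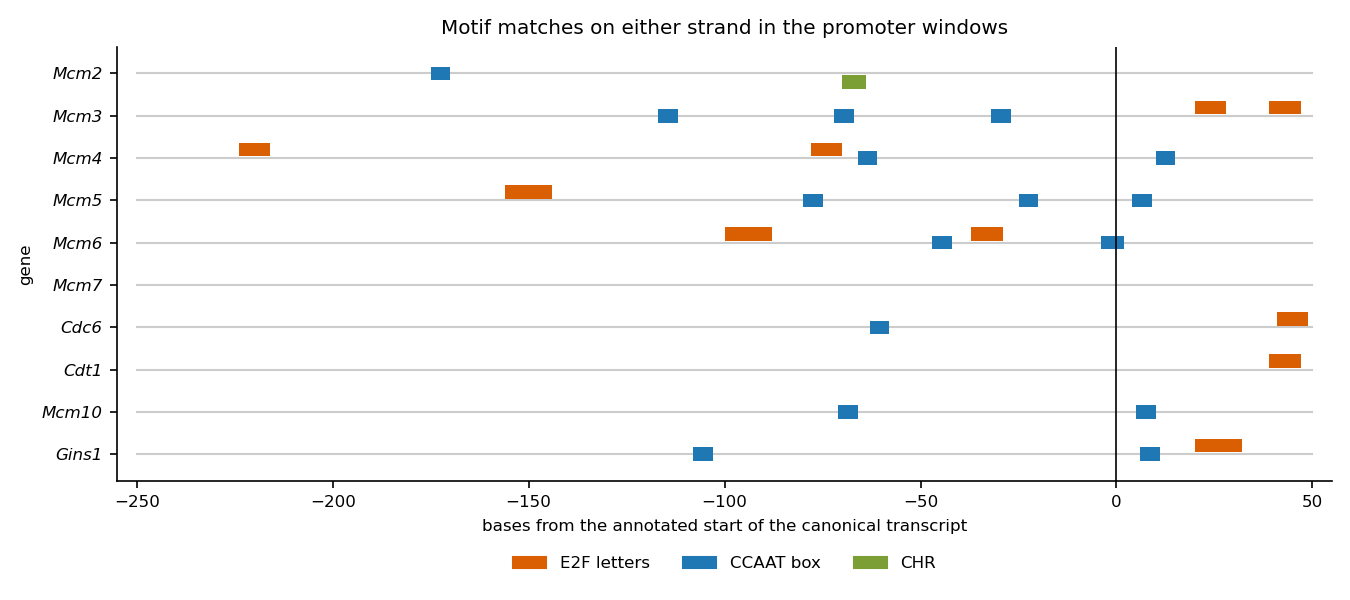
Positions of E2F letters (orange), CCAAT boxes (blue) and CHR letters (green) on either strand, in bases from the annotated start (0) of the canonical transcript, for the 10 genes. E2F letters lie within 50 bases after the start in 4 genes and only upstream of it in 3, and Mcm7 holds no match of any kind.

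The 6 helicase subunit genes were higher in every condition with a GKRP vector, by 1.88-fold (Mcm7) to 5.96-fold (Mcm5) for the mean of the 4 vectors against untreated cultures. Mcm5 was at 10.5, 4.80 and 5.14 CPM in the untreated cultures of mice 1, 2 and 3. It was at 44.4, 29.4 and 40.8 CPM for hP, at 41.7, 28.6 and 38.8 for hL, at 58.0, 31.1 and 45.9 for mP, and at 54.7, 23.2 and 49.3 for mL. All 12 samples with a GKRP vector were above all 3 untreated samples, as they were for 7 of the 10 genes and for 1.95% of all genes tested. The change for the mean of the 4 vectors was 2.58 on the log2 scale (SE 0.35).

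Mcm4 was at 11.9, 8.85 and 13.2 CPM in untreated cultures and at 43.2 to 88.3 CPM, with a median of 65.8, over the 12 samples with a GKRP vector at endogenous GK, a log2 change of 2.48 (SE 0.23). Mcm3 was at 17.4, 15.9 and 18.1 CPM and at 52.2 to 87.6 with a median of 74.6, a log2 change of 2.06 (SE 0.17). Mcm2 was at 15.1, 9.22 and 11.8 CPM and at 28.1 to 69.2 with a median of 50.1, a log2 change of 2.03 (SE 0.27). For these 3 genes the groups did not overlap in any mouse or vector. Mcm6, the most abundant of the 6, was at 60.5, 88.1 and 69.9 CPM untreated and at 178 to 244 with a median of 209.8 with the vectors, a log2 change of 1.53 (SE 0.12). Mcm7 moved least, from 26.5, 40.6 and 26.7 CPM to 48.3 to 71.4 with a median of 57.8, a log2 change of 0.91 (SE 0.15), and its groups did not overlap either.

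Of the loading factors, Cdt1 followed the helicase and Cdc6 did not separate the groups. Cdt1 was at 7.72, 8.55 and 5.89 CPM in untreated cultures and at 13.2 to 38.7 CPM, with a median of 25.7, with the GKRP vectors, a log2 change of 1.70 (SE 0.30). Cdc6 was near the limit of detection, at 1.29, 0.450 and 0.969 CPM untreated and 0.183 to 2.74 with a median of 1.21, and its log2 change was 0.53 (SE 0.54). The range of Cdc6 with the vectors contained all of its untreated values.

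The activation factors were low and partly overlapped. Gins1 was at 2.28, 1.87 and 1.04 CPM untreated and at 1.83 to 5.12, with a median of 3.26, with the vectors, a log2 change of 0.98 (SE 0.39). Mcm10 was at 1.58, 1.12 and 1.19 CPM and at 1.41 to 4.36 with a median of 3.26, a log2 change of 1.19 (SE 0.32). All 3 mice were above every untreated sample with 3 of the 4 vectors for Mcm10 and with 2 of the 4 for Gins1.

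Most reads of the other genes lay on 1 protein-coding transcript, with 81.5% or more on the leading one, but those of Mcm10 did not. Its canonical transcript held 17.1% of the reads of the gene without a GKRP vector and 73.7% with one. The 6 untreated cultures held 8.09 reads of it in all and the 6 GK cultures 8.55, whereas the 3 cultures of a GKRP condition held between 20.6 (GK+mL) and 54.5 (GK+mP). As CPM of the unadjusted library total, it was at 0, 0 and 0.608 in the untreated cultures of mice 1 to 3 and at 3.04, 2.53 and 3.45 with GK+mP. It was at 0 in 1 mouse each with hL, mL and GK+hP, so single samples were not always above the controls. With the reads of this transcript alone in place of the gene, an alternative chosen after the values were seen, the fitted log2 change was 3.25 in place of 1.19, and it rests on these few reads.

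The median log2 change of the 10 genes was 1.62 with the mean of the 4 GKRP vectors, beside -0.0014 over all genes tested. The 6 subunits and Cdt1, 7 genes in all, passed the threshold of an adjusted p under 0.05 in edgeR with a fold of at least 1.3, where 1.49% of all genes tested did so in that direction. The same 7 genes passed with each vector on its own, beside 0.706% of all genes higher and 0.0739% lower for hP. The shares were 0.805% and 0.0739% for hL, 0.994% and 0.123% for mP, and 0.912% and 0.14% for mL. These counts restate levels that led to the choice of the genes. Without mouse 3 the count of 7 fell to 3 (Mcm3, Mcm4 and Mcm6), and with an offset for the transcript lengths of each sample it was also 3 (Mcm4, Mcm5 and Mcm6), while all 10 changes stayed above 0 under every alternative.

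**Figure D2:**
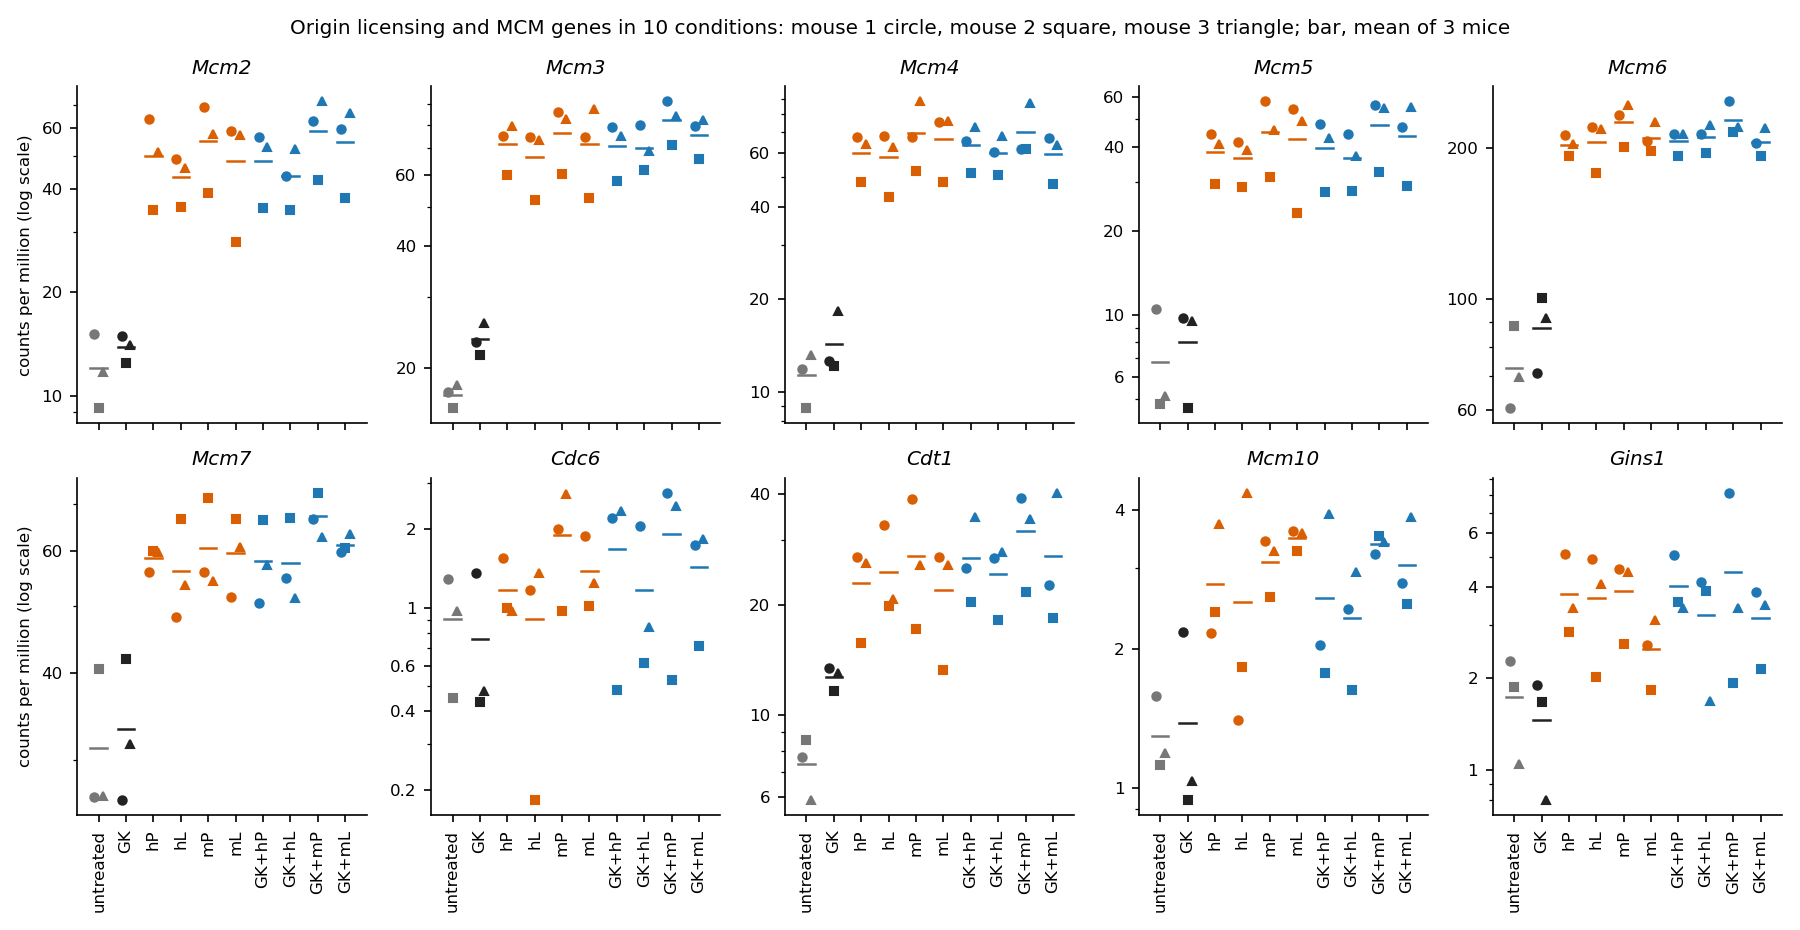
CPM on a log axis of the 10 genes in each mouse (circle, mouse 1; square, mouse 2; triangle, mouse 3) with the mean of 3 mice as a bar, for untreated (grey), GK (black), GKRP vector (orange) and GK with GKRP vector (blue) conditions. For Mcm2 to Mcm7 every orange and blue point lies above every grey and black one, and for Cdc6 the points of the 4 groups overlap.

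The mice differed in a way that several genes shared. Over the 8 conditions with a GKRP vector, mouse 2 was the lowest of the 3 mice in all 8 for Mcm2, Mcm3, Mcm5, Mcm6 and Cdt1 and in 7 for Mcm4 and Cdc6. Mcm7 went the other way, with mouse 2 the highest in 7 of 8.

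With the GK vector alone, the log2 changes of the 10 genes lay between -0.25 (Cdc6, SE 0.67) and 0.78 (Cdt1, SE 0.34). Mcm5 was at 9.80, 4.65 and 9.51 CPM with GK, within its untreated range of 4.80 to 10.5 but for mouse 2, and its log2 change was 0.24 (SE 0.38). Cdt1 moved most, to 13.4, 11.6 and 13.0 CPM, above all 3 untreated values. Mcm3 was at 23.2, 21.5 and 25.8 CPM, also above all 3 untreated values, with a log2 change of 0.46 (SE 0.18). Cdt1, Mcm3, Mcm4 and Mcm6 were higher with GK in 3 of 3 mice and Gins1 was lower in 3 of 3, with no share of all genes given. The GK values of mouse 3 in this count include the culture with high Gckr. The median of the 10 changes was 0.22. None passed the threshold in edgeR or DESeq2, and 0.00821% of all genes passed it in edgeR in the higher direction. With the mouse as a block Mcm3 passed in both tools, where 0.345% of all genes passed in that direction in edgeR and 0.649% in DESeq2.

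The GK culture of mouse 3 with high Gckr held 22.3 CPM of Mcm4 against 13.5 in the second culture of the same mouse, and 12.3 against 6.22 of Mcm5. Without it the log2 change with GK was 0.17 in place of 0.34 for Mcm4 and 0.03 in place of 0.24 for Mcm5, and remained 0.41 for Mcm3 and 0.79 for Cdt1. The median of the 10 changes was then 0.14 in place of 0.22.

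With GK overexpressed, the GKRP vectors were again accompanied by higher levels of the helicase. Mcm5 rose from 9.80, 4.65 and 9.51 CPM with GK alone to 27.6 to 56.4 with a median of 43.7 over the 12 samples of GK with a GKRP vector, a log2 change of 2.39 (SE 0.34). Mcm4 was at 12.6, 12.1 and 18.3 CPM with GK and at 47.6 to 86.9 with a median of 62.7 with both vectors, a log2 change of 2.13 (SE 0.22). Mcm2 changed by 1.88 (SE 0.27), Mcm3 by 1.66 (SE 0.16), Mcm6 by 1.28 (SE 0.11) and Mcm7 by 0.87 (SE 0.15) on the log2 scale. No sample with both vectors overlapped the GK samples for these 6 genes and Cdt1, beside 1.63% of all genes tested.

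Cdt1 changed by 1.11 (SE 0.28), Gins1 by 1.33 (SE 0.40), Mcm10 by 1.02 (SE 0.32) and Cdc6 by 1.02 (SE 0.56) on the same scale. The median of the 10 changes was 1.31, beside 0.0098 over all genes, and the 7 genes named above passed the threshold, where 1.11% of all genes did so. Per vector, 6 passed with GK+hP, GK+hL and GK+mL (0.632%, 0.468% and 0.558% of all genes higher, 0.246%, 0.131% and 0.0328% lower) and 7 with GK+mP (1.03% higher, 0.616% lower). Without the GK culture with high Gckr the changes of Mcm4 and Mcm5 were 2.31 and 2.59, and the count of 7 was 3 without mouse 3 and 4 (Mcm3, Mcm4, Mcm5 and Mcm6) with the length offset.

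**Figure D3:**
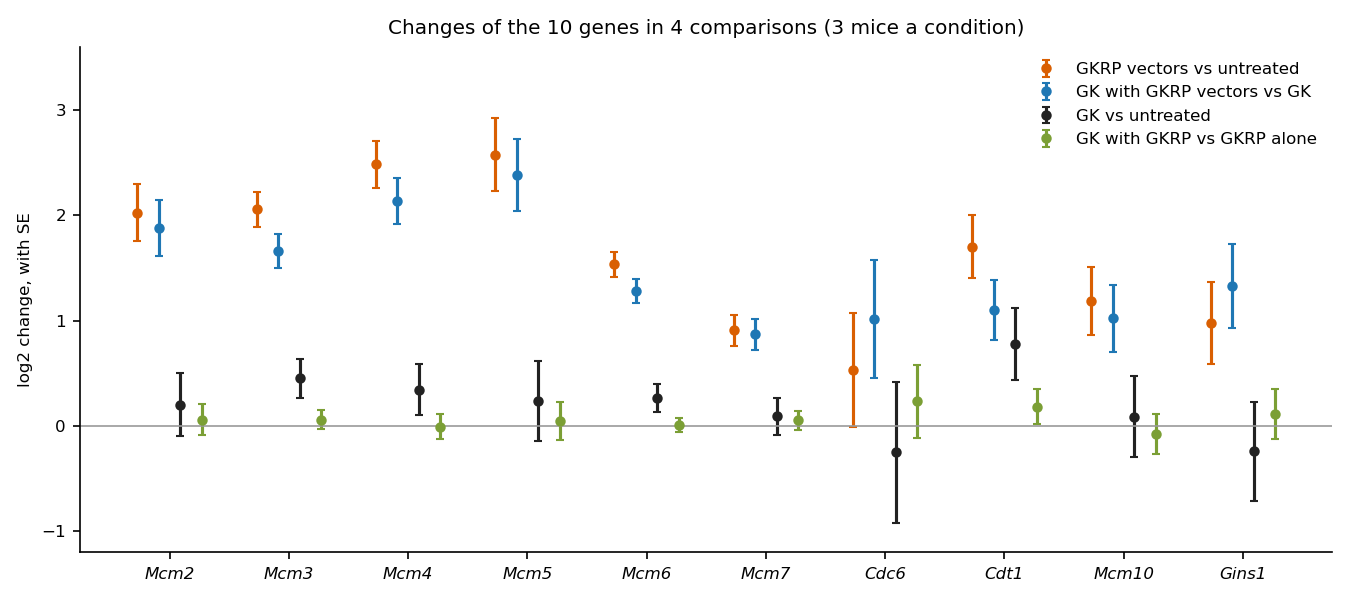
Log2 change with its SE for the 10 genes in 4 comparisons, each over 3 mice a condition. Changes with the GKRP vectors lie between 0.53 and 2.58 without GK (orange) and between 0.87 and 2.39 with it (blue), those of GK alone (black) lie between -0.25 and 0.78, and those of GK added to a GKRP vector (green) between -0.08 and 0.24.

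GK was also added to each GKRP vector. For the mean of the 4 pairs, the log2 changes lay between -0.08 (Mcm10) and 0.24 (Cdc6), with a median of 0.06 and none past the threshold in edgeR, in DESeq2 or at an unadjusted p under 0.05 (0.0164% of all genes passed, in the higher direction). The difference between the GKRP effect with GK and that without it was below 0 for 8 of the 10 genes, from -0.60 (SE 0.38) for Cdt1 to 0.48 (SE 0.76) for Cdc6, with a median of -0.18, and again none passed in either tool or at an unadjusted p under 0.05 (0% of all genes in edgeR). With the length offset, and also without the GK culture with high Gckr, 6 of the 10 were below 0.

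The 446L form was compared with the 446P form over both species of GKRP and both GK levels. All 10 changes lay below 0, from -0.05 (SE 0.07) for Mcm6 to -0.43 (SE 0.35) for Cdc6, with a median of -0.10. In 3 of 3 mice 7 of the 10 genes were lower, and no share of all genes is given for that count. Deviations from condition means correlated among the 10 genes (median r 0.46 over 45 pairs), so they are not separate observations. With the length offset 6 of the 10 changes were below 0 and 4 above it. Mcm2 differed by -0.17 (SE 0.15), with -0.26, -0.16 and -0.08 in mice 1, 2 and 3, and Gins1 by -0.37 (SE 0.24). The SE exceeded the change in Mcm3, Mcm4, Mcm5, Mcm6, Mcm7, Cdt1 and Mcm10. None of the 10 passed the threshold in edgeR or DESeq2 or an unadjusted p under 0.05, which describes these genes and does not test the forms. In edgeR 0.00821% of all genes passed as higher and 0% as lower, and in DESeq2 0.148% and 0.0657%. The Gckr reads of the mouse vectors were lower for mL than for mP in every mouse at both GK levels, with 11480 ± 2777 CPM for GK+mL against 16435 ± 3220 for GK+mP. The part of that level in these values was not tested, and the level of the human vectors was not measured here.

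Mouse GKRP was compared with human GKRP over both forms and both GK levels, again as a description. Of the 10 changes, 9 lay above 0, from 0.07 (SE 0.07) for Mcm6 to 0.43 (SE 0.35) for Cdc6, Gins1 was at -0.09 (SE 0.24), and the median was 0.13. With the length offset 7 were above 0 and 3 below it, with a median of 0.043. The 6 helicase subunits and Cdc6 were higher in 3 of 3 mice. None passed in edgeR, in DESeq2 or at an unadjusted p under 0.05, and 0.00821% of all genes passed as higher in edgeR. GK+mP had the highest mean of the 10 conditions for all of these genes but Mcm10, for which mL did, and untreated and GK were the 2 lowest conditions for all 10. Within the 8 GKRP conditions the means of Mcm6 ran from 203 (hP) to 228 CPM (GK+mP), those of Mcm5 from 36.4 (hL) to 47.9 (GK+mP) and those of Cdt1 from 21.9 (mL) to 31.6 (GK+mP), and neighbours in these orders differed by less than the larger of their SDs.

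**Figure D4:**
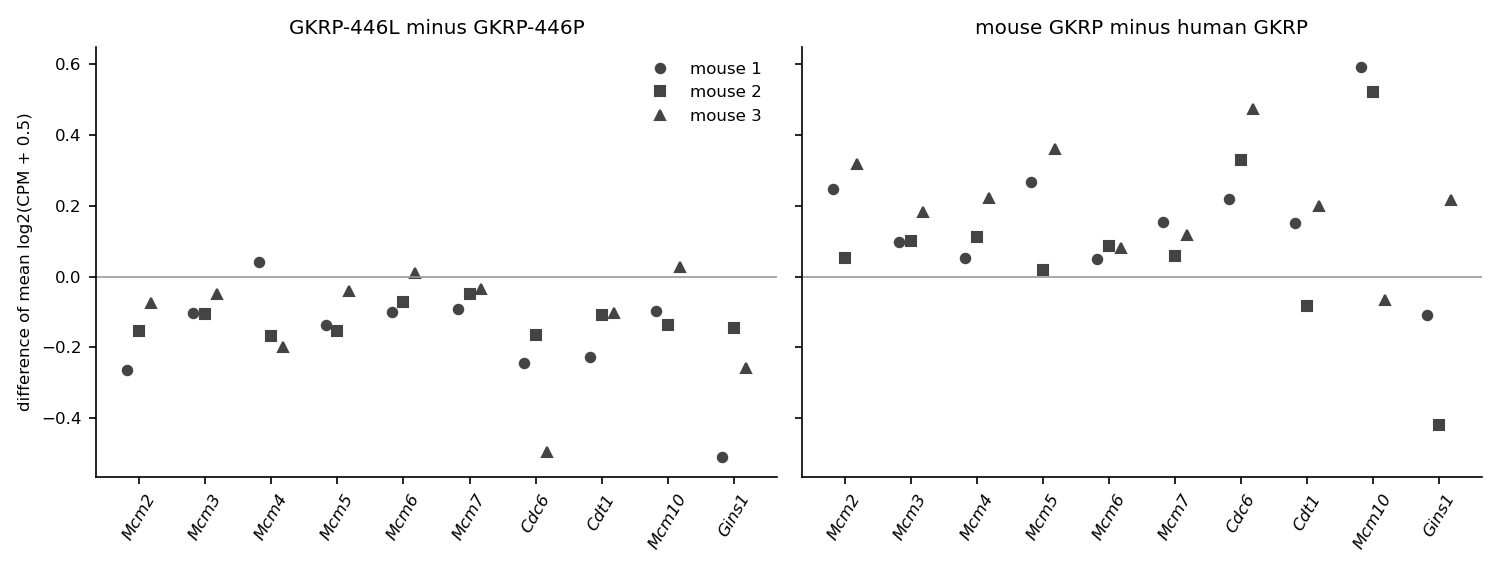
Difference of mean log2(CPM + 0.5) in each mouse, 446L minus 446P (left) and mouse minus human GKRP (right), for the 10 genes. Left, all 3 mice lie below 0 for 7 genes; right, all 3 lie above 0 for 7 genes, and the points stay between -0.51 and 0.59.

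GK alone was also set against untreated and GKRP vector samples combined. All 10 genes were lower with GK, from -0.67 (SE 0.22) for Mcm7 to -2.07 (SE 0.57) for Mcm5 on the log2 scale, with a median of -1.07. Without the GK culture with high Gckr the median was -1.18. However, 12 of the 15 reference samples carried a GKRP vector, and against untreated cultures alone 8 of the 10 changes had the opposite sign. None passed in edgeR, where 0.0328% of all genes passed as lower. DESeq2 called 5, beside 0.723% of all genes, and edgeR with the mouse as a block called 3, beside 0.69%.

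The 6 subunits form a ring with 1 copy of each, and their transcripts were unequal when compared per length. In untreated cultures, the length-scaled transcript levels (TPM) over protein-coding transcripts were 16.5 ± 2.76 for Mcm6 and 10.9 ± 2.72 for Mcm7, whose ranges over the mice overlapped. They were 3.81 ± 0.619 for Mcm3, 3.00 ± 1.05 for Mcm4, 2.39 ± 0.986 for Mcm2 and 2.03 ± 1.24 for Mcm5, and neighbours among these 4 overlapped. The ratio of the highest to the lowest subunit, taken in each mouse, was 10.5 ± 3.71 in untreated cultures and 11.9 ± 6.87 with GK. It was 5.40 ± 1.15 over the 12 samples with a GKRP vector and 6.2 ± 3.27 over the 12 with GK and a GKRP vector. The ranges overlapped, with 6.23 to 13.1 in untreated cultures, 4.04 to 7.95 with the GKRP vectors and 3.62 to 16.2 with GK and the GKRP vectors. The ratio depends on which transcripts enter it, since over all transcripts it reached 39.9 in GK+mL of mouse 3, where a single short Mcm2 transcript took 352 TPM from 21.4 reads at an effective length of 4.46 bases.

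Among the other 52 pathway genes, 48 passed the filter. Ticrr, Clspn, Mcm8 and Mcmdc2 did not. With the mean of the 4 GKRP vectors, 20 of the 48 rose and none fell (edgeR, adjusted p under 0.05 and the fold above), beside 1.49% higher and 0.402% lower among all genes. DESeq2 called 23 higher and 0 lower, beside 1.86% and 0.591% of all genes. The median log2 change of the 48 was 0.65. Orc1, Cdc45, Cdc7, Gins3, Pole2 and Recql4 passed the filter only through samples with a GKRP vector, as did Mcm10 and Cdc6. Among the 42 other pathway genes, a restriction chosen after the values were seen, 18 rose, beside 1.41% of the 10999 genes that passed without those samples. These lists were also chosen with earlier results of the data known.

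Of the 7 origin recognition genes, none of those that passed the filter without the GKRP vector samples was called against untreated cultures. Orc1, the subunit whose level varies over the cell cycle, was at 0.495, 0.225 and 0.447 CPM in untreated cultures and at 0.733 to 2.91 with a median of 1.85 with the GKRP vectors, with no overlap and a log2 change of 2.20 (SE 0.41). Since the entry of Orc1 to the test rested on the samples with a vector, no p is given for it and its call is not read as a result. Orc2, Orc3, Orc4 and Orc5 lay between -0.09 and 0.33 and did not pass. Orc6 was at 0.56 (SE 0.17, edgeR adjusted p = 0.129) and was called with the mouse as a block. With GK present the change of Orc1 was 1.65 (SE 0.38). Orc6 passed, at 0.74 (SE 0.18, edgeR adjusted p = 0.0261). Orc2, at 0.38 (SE 0.09, edgeR adjusted p = 0.0198), missed the call only by its fold of 1.29994, under the 1.3 required. It was called with the block.

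Of the licensing control genes, 1 of the 5 tested rose, Rif1, which is named after its value was seen (log2 change 0.77, SE 0.20, edgeR adjusted p = 0.0372). With GK present Rif1 was at 0.45 (SE 0.19, edgeR adjusted p = 0.392) and was not called. Mcmbp, also named after its values were seen, was at 0.31 (SE 0.07, edgeR adjusted p = 0.0221) and missed the call by its fold of 1.24. With GK present Mcmbp was at 0.32 (SE 0.07, edgeR adjusted p = 0.0177), at a fold of 1.25. Against untreated cultures it was called with hP and mP and not with hL or mL. Gmnn, which encodes the Cdt1 inhibitor geminin, was at 4.55, 6.45 and 4.84 CPM in untreated cultures and its change of 0.49 (SE 0.16) did not pass (edgeR adjusted p = 0.141). With the mouse as a block Gmnn and Mcm9 were called as well, so that 3 of the 5 rose. With GK present Gmnn rose by 0.72 (SE 0.16, edgeR adjusted p = 0.0141).

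Of the helicase activation genes, 4 of 10 were called. Cdc45 is among them, but it passed the filter only through samples with a GKRP vector, so its call is not read as a result. Gins2, a partner of Gins1 in the GINS complex, was at 3.56, 3.15 and 3.35 CPM untreated and at 7.53 to 14.2 with a median of 10.6 with the GKRP vectors (log2 change 1.69, SE 0.27, edgeR adjusted p = 0.000525). The 2 remaining GINS genes did not pass, with 0.38 (SE 0.28) for Gins3 and 0.04 (SE 0.17) for Gins4. Cdc45, which joins MCM2-7 and GINS in the active helicase, changed by 1.42 (SE 0.35) from 0.990, 0.675 and 0.447 CPM. It is given with no p for the same reason as Orc1. Donson, which delivers GINS to the loaded ring, changed by 1.38 (SE 0.26, edgeR adjusted p = 0.00329). The kinase gene Cdc7, which also passed the filter only through samples with a GKRP vector, was at 1.29 (SE 0.42). Its partner Dbf4 was at 0.33 (SE 0.12, edgeR adjusted p = 0.245).

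Of the replisome genes, 14 of 26 rose. Lig1, the DNA ligase that joins Okazaki fragments, was at 15.5, 13.0 and 13.4 CPM untreated and at 30.9 to 63.9 with a median of 49.5 with the vectors, with no overlap (log2 change 1.75, SE 0.26, edgeR adjusted p = 0.000236). Wdhd1, which couples the helicase to DNA polymerase alpha, was at 3.36, 3.45 and 5.29 CPM and at 11.2 to 20.1 with a median of 14.3 (log2 change 1.89, SE 0.23, edgeR adjusted p = 2.29e-05). Timeless, of the fork protection complex, changed by 1.96 (SE 0.29, edgeR adjusted p = 0.000248), and Pold1, the catalytic subunit of DNA polymerase delta, by 1.27 (SE 0.24, edgeR adjusted p = 0.00331). Each of these was higher in all 12 samples with a GKRP vector than in the 3 untreated samples.

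With GK overexpressed, 19 of the 48 rose against GK alone and none fell, beside 1.11% and 0.501% of all genes, with a median of 0.72. DESeq2 called 25 higher and 0 lower, beside 1.77% and 0.698% of all genes. Of the 42 genes that passed the filter without the GKRP vector samples 17 rose, beside 1.08% of such genes. The largest changes among these 17 were 1.87 (SE 0.23) for Wdhd1, 1.64 (SE 0.28) for Timeless, 1.52 (SE 0.25) for Lig1, 1.39 (SE 0.15) for Rpa2, 1.06 (SE 0.26) for Gins2 and 0.97 (SE 0.25) for Donson. Orc1 and Cdc45, which entered the test only through the GKRP vector samples, changed by 1.65 and 1.61 (SE 0.35). The 2 comparisons share no sample, though they share the 3 mice. With an offset for transcript length in each sample, 2 (Pold1 and Rpa1) and 1 (Rpa2) of the 48 passed in place of 20 and 19. Without mouse 1, 2 or 3 in turn, 12, 13 and 2 passed without GK and 8, 13 and 2 with GK, and Rpa2 and Wdhd1 were the 2 genes that passed in both without mouse 3.

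**Figure D5:**
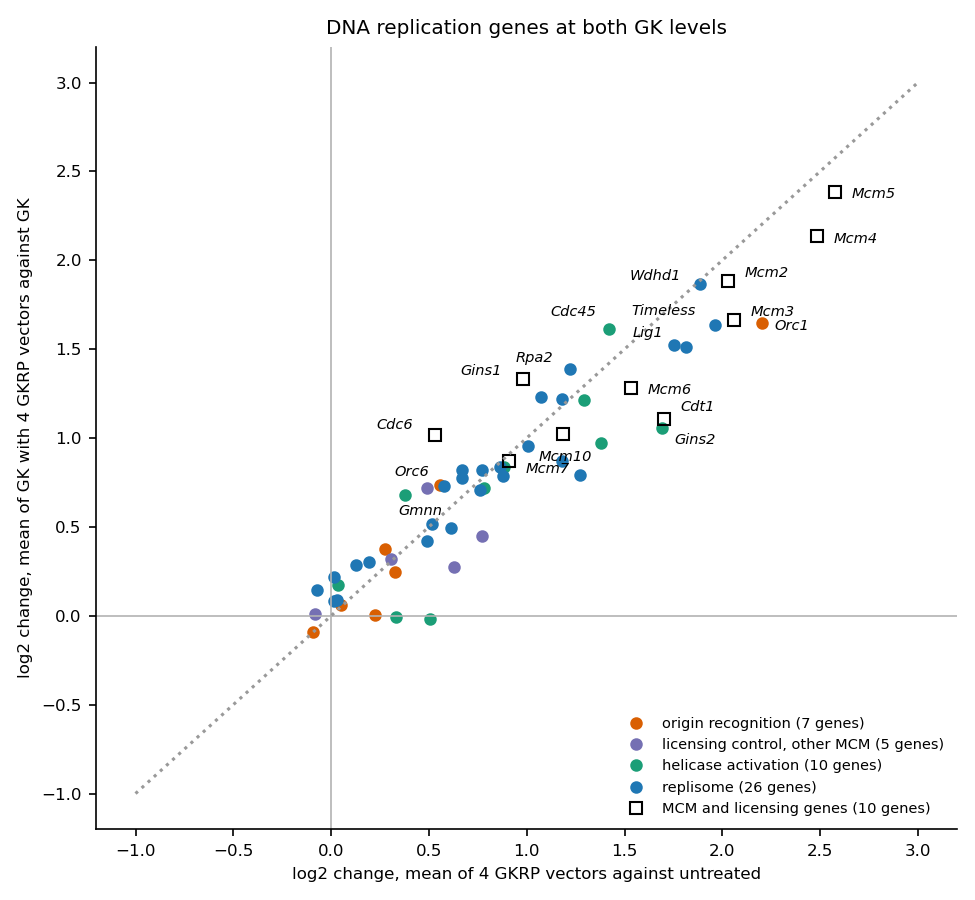
Log2 change with the GKRP vectors against untreated cultures (x axis) and, with GK overexpressed, against GK alone (y axis), for 48 pathway genes coloured by role and the 10 MCM and licensing genes (open squares). Most points lie above 0 on both axes near the dotted line of equal change, Mcm5 and Mcm4 are farthest out, and Orc4 lies at -0.09 on both axes.

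With at least 1 of the 4 vectors, 18 of the 48 rose against untreated cultures and 17 against GK, beside 1.25% and 1.15% of all genes. With the mouse as a block these counts were 29 and 28, beside 3.8% and 4.48%. In the other comparisons the pathway genes did not pass. With GK alone against untreated cultures, none of the 48 was called by edgeR or DESeq2 and 1 was higher at an unadjusted p under 0.05. With GK added to a GKRP vector, none was called by either tool, with 1 higher and 2 lower at an unadjusted p under 0.05, and for the difference between the GKRP effects with and without GK the counts were 0 by all 3 measures. For 446L against 446P none was called by either tool, with 2 lower at an unadjusted p under 0.05, and for mouse against human GKRP none was called, with 2 higher. With GK against untreated and GKRP vector samples combined, Rpa2 was the 1 gene called, lower by 1.22 (SE 0.28, edgeR adjusted p = 0.0407), and 6 were called with the mouse as a block.

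Genes of the later steps of the cell cycle were mostly too low to test. Of 20 G2 and M phase genes, 5 passed the filter. None of the 5 would have done so without the GKRP vector samples, so no p and no call is given for them. Cdk1, the mitotic kinase, was at 0.693, 0.525 and 0.522 CPM in untreated cultures and at 0.407 to 4.82 with a median of 2.77 with the GKRP vectors (log2 change 2.30, SE 0.61). With GK present its change was 1.80 (SE 0.57). Against untreated cultures the other 4 were at -0.03 (SE 0.88) for Mki67, 1.44 (SE 0.82) for Top2a, -0.55 (SE 0.41) for Aurka and -0.38 (SE 0.40) for Tpx2. With GK present the values of these 4 genes, in the same order, were -0.58 (SE 0.90), -0.01 (SE 0.69), 0.02 (SE 0.41) and 0.08 (SE 0.43).

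The 10 genes whose means over the 10 conditions were most like the mean of the MCM and licensing genes, by Pearson's r of log2 levels, were Lig1, Ccne2, Hells, Ccne1, Uhrf1, Mbd1, Cdk2, Cep250, Fignl1 and Cbx2, with r from 0.9907 to 0.9985. Ccne1 and Ccne2 encode the E-type cyclins and Cdk2 their kinase partner, and Uhrf1 and Hells act in the maintenance of DNA methylation. The 10 points fall into conditions with and without a GKRP vector and share 3 mice, so r describes mainly the step between them. Their levels spanned 1.39 (Mbd1) to 3.12 (Uhrf1) log2 units over the conditions.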

How the data were processed

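RNA of 36 hepatocyte cultures was sequenced. The authors quantified transcripts with Salmon 1.4.0 on Gencode sequences of GRCm39, and each deposited file holds an estimated count, a TPM value and an effective length per transcript. These expected counts, made by the authors with Salmon, are not normalized. Estimated counts were summed to genes (Gencode vM39, 98.8% of transcripts matched) and rounded, and the 2 cultures of a mouse in untreated and GK were summed. TPM are the authors' own and were summed per gene. Genes passing filterByExpr were tested with edgeR 4.0.16 (TMM, quasi-likelihood F test, Benjamini-Hochberg over 12177 genes) across all 30 samples without a block. A call required an adjusted p under 0.05 and a fold of at least 1.3 or at most 0.7. The script was tested on simulated data.

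Deviations from condition means correlated at 0.22 between samples of the same mouse and -0.11 otherwise, and since the labels name the mouse, samples pair by mouse. The mouse block, DESeq2 1.42.0, other normalizations, filters and a length offset were alternatives. Depth limits genes near 1 CPM to few reads. All 10 genes were named, with up to 8 called pathway genes of largest change per comparison and the ORC, GINS, Gmnn, Cdc45, Cdc7 and Dbf4 genes. The 10 genes and the lists were chosen with earlier results of these data known. P-values without the block rest on the spread between the 3 mice within a condition, pooled over the 10 conditions. The same 3 mice recur in every condition, and their samples are treated as independent there. The check of the GK vector by its own transcript is not reported here.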

Additional observations from a re-analysis of the deposited data

Results flagged for a closer look

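In the 6 cultures that received GK alone, Gckr was at 1462 CPM in 1 culture of mouse 3, far above the next value of 98.0 CPM. Mcm4 was at 22.3 CPM in the same culture, apart from the next value of 14.3 CPM. Cdc6 was at 2.72 CPM in 1 GK culture of mouse 1, with the next at 0.902 CPM. Each gap exceeded Dixon's 95% critical value for 6 samples, which chance exceeds in about 1 in 20 groups, and 24 groups were examined.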

How the results depend on the processing

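Depth limits Cdc6, Mcm10, Gins1, Orc1 and Cdc45, which rest on few reads a library, and 3 mice a condition limit the rest. Of 1048 values of single genes under an alternative, 986 moved by less than the SD over the mice and none of the called ones changed sign. With the GKRP vectors against untreated cultures, the pathway count of 20 was 2 with the length offset and 2 to 13 without 1 mouse. With GK present, the count of 19 was 10 with no filter, 1 with the length offset and 2 to 13 without 1 mouse. The count with at least 1 vector, 18, was 11 with library size alone, 11 with no filter, 1 with the length offset, 29 with the replicate block, 29 with DESeq2 and the block and 1 to 10 without 1 mouse. With GK present, the count of 17 was 10, 1, 28 and 27 in the settings with no filter, the length offset, the block and DESeq2 with the block, 26 with cultures as samples and 2 to 12 without 1 mouse. For GK against the 5 combined groups, the count of 1 lower gene was 0 with no filter or the length offset, 7 with DESeq2, 6 with the block, 13 with DESeq2 and the block, 4 with cultures as samples and 0 without any 1 mouse. The median change of the 10 genes was 0.17 in place of 0.06 for GK added to a GKRP vector, and 0.043 in place of 0.13 for mouse against human GKRP, with the length offset. It ranged from -0.15 to -0.085 for 446L against 446P and from -1.30 to -0.90 for GK against the combined groups without 1 mouse. The causes were not tested. With the mouse block, the share of all genes called higher went from 1.49% to 3.1% against untreated cultures and from 1.11% to 2.92% with GK present. For GK against untreated cultures it went from 0.00821% to 0.345%, and for 446L against 446P from 0.00821% to 0.485%.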

Other observations

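The TPM of several of these genes over protein-coding transcripts differed more between GK and untreated cultures than their CPM did. Mcm6 was then at 30.3 ± 3.21 TPM with GK and 16.5 ± 2.76 in untreated cultures, and Mcm3 at 7.73 ± 0.872 and 3.81 ± 0.619. Their CPM, which count all transcripts, differed by 0.26 and 0.46 on the log2 scale. Over all transcripts the TPM were 30.3 ± 3.21 and 23.5 ± 5.49 for Mcm6, and 8.76 ± 2.26 and 9.11 ± 3.33 for Mcm3. The gap in TPM thus depends on which transcripts enter it. TPM also depends on the effective lengths estimated in each library and CPM does not.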
